A study of Mus musculus with 6 samples.

Results

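The cytosolic ribosomal protein genes were examined in osteoblasts (OBs) from BMP-2-induced ectopic bone. They were taken as every listed gene whose symbol begins with Rpl or Rps followed by a number with at most the letters a, l or x behind it, together with Rplp0, Rplp1, Rplp2 and Rpsa. This rule uses names only, and it found 80 of the 23284 genes listed in each sample: 49 genes of the large subunit and 31 of the small subunit. RNA-seq was performed on ECFP+ OBs sorted on day 10 (n = 3) and on day 14 (n = 3) after a collagen sponge with 2.5 μg of BMP-2 had been implanted into male Col2.3-ECFP mice 12 to 16 weeks old. In both groups ECFP, a cyan fluorescent protein, was driven by a type I collagen promoter, so the sort took cells in which that promoter was active, after CD45+ and dead cells had been gated out. The bone pieces of both groups were digested with trypsin and collagenase II, but the later samples had 2 rounds of collagenase and the earlier ones 1, so that digestion and day cannot be told apart. The titles of the later samples give day 14 for replicates 1, 2 and 3, whereas their descriptions give day 14, 15 and 16. How many animals stand behind a sample was not given in the sources used here, and the p-values below measure only the spread between these samples.

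Ribosomal proteins are the protein part of the ribosome, which reads mRNA on its small subunit and joins amino acids on its large subunit. The genes are among the most strongly and evenly used genes of growing and secreting cells, since each ribosome takes about equal amounts of nearly every protein, and OBs depend on them to make the collagen of the bone matrix. Their short, abundant mRNAs have also been copied back into the genome many times, which has left processed pseudogenes whose sequence can be nearly that of the parent mRNA. All values below are FPKM, the number of reads scaled to transcript length and to the mapped reads of the sample, so that levels can be compared between genes of unequal length.

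The sequences that go with the widest differences in level are shown first. Each is a stretch of coding sequence from the GENCODE vM21 transcripts of the mm10 build, written 5′ to 3′, and capitals mark a run of 75 bases, the read length of the study, that an annotated transcript at another locus holds without a mismatch. For each gene with such a run, the run found at the largest number of other loci is shown, and Rps3, which had none, is shown from its start codon in lower case.
Rpl11: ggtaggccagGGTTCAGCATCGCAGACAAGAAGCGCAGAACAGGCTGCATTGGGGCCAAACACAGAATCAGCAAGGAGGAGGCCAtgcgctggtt
Rps12: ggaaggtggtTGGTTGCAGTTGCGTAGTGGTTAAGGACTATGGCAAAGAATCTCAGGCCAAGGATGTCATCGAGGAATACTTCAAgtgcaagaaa
Rpl21: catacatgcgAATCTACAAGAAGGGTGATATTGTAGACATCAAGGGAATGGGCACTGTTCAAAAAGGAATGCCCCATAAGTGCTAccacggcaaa
Rpl32: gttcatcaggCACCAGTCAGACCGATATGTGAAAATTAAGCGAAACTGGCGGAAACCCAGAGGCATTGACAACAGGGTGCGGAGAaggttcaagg
Rps3: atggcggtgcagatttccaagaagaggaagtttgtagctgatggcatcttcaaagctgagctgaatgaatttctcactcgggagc
Rpl41: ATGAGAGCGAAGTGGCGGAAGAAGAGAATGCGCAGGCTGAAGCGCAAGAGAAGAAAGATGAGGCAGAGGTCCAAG
The Rpl11 run lay in coding bases 413 to 487 of a gene on chromosome 4 (136028265 to 136053428, minus strand) and occurred at 6 other loci. The Rps12 run lay in coding bases 312 to 386 of a gene on chromosome 10 (23785183 to 23787275, minus strand) and occurred at 17 other loci. The Rpl21 run lay in coding bases 96 to 170 of a gene on chromosome 5 (146832890 to 146837032, plus strand), and 30 other loci held it. The Rpl32 run, in coding bases 67 to 141 of a gene on chromosome 6 (115805505 to 115808747, minus strand), occurred at 1 other locus. Rps3, a small subunit protein at the mRNA entry, is on chromosome 7 (99477896 to 99483738, minus strand), and none of its 655 coding windows of 75 bases was found elsewhere. The Rpl41 sequence is the whole coding sequence of that gene, which is 75 bases long without its stop codon, lies on chromosome 10 (128548114 to 128549305, minus strand) and occurred at 4 other loci.

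The listed levels of the ribosomal protein genes spanned a very wide range. The mean over the 6 samples ran from 0.0728 FPKM for Rpl11 to 524 FPKM for Rpl41, a ratio of 7195. Of the 80 genes, 16 had a mean of at least 100 FPKM, 29 had 10 to under 100 FPKM, 18 had 1 to under 10 FPKM, and 17 were under 1 FPKM. The 10 highest genes made up 59.6% of the sum over all 80. A value above 0 was listed in all 6 samples for 63 genes, and the other 17 were listed at 0 in at least 1 sample, with 5 to 13 genes at 0 in any given sample.

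**Figure D1:**
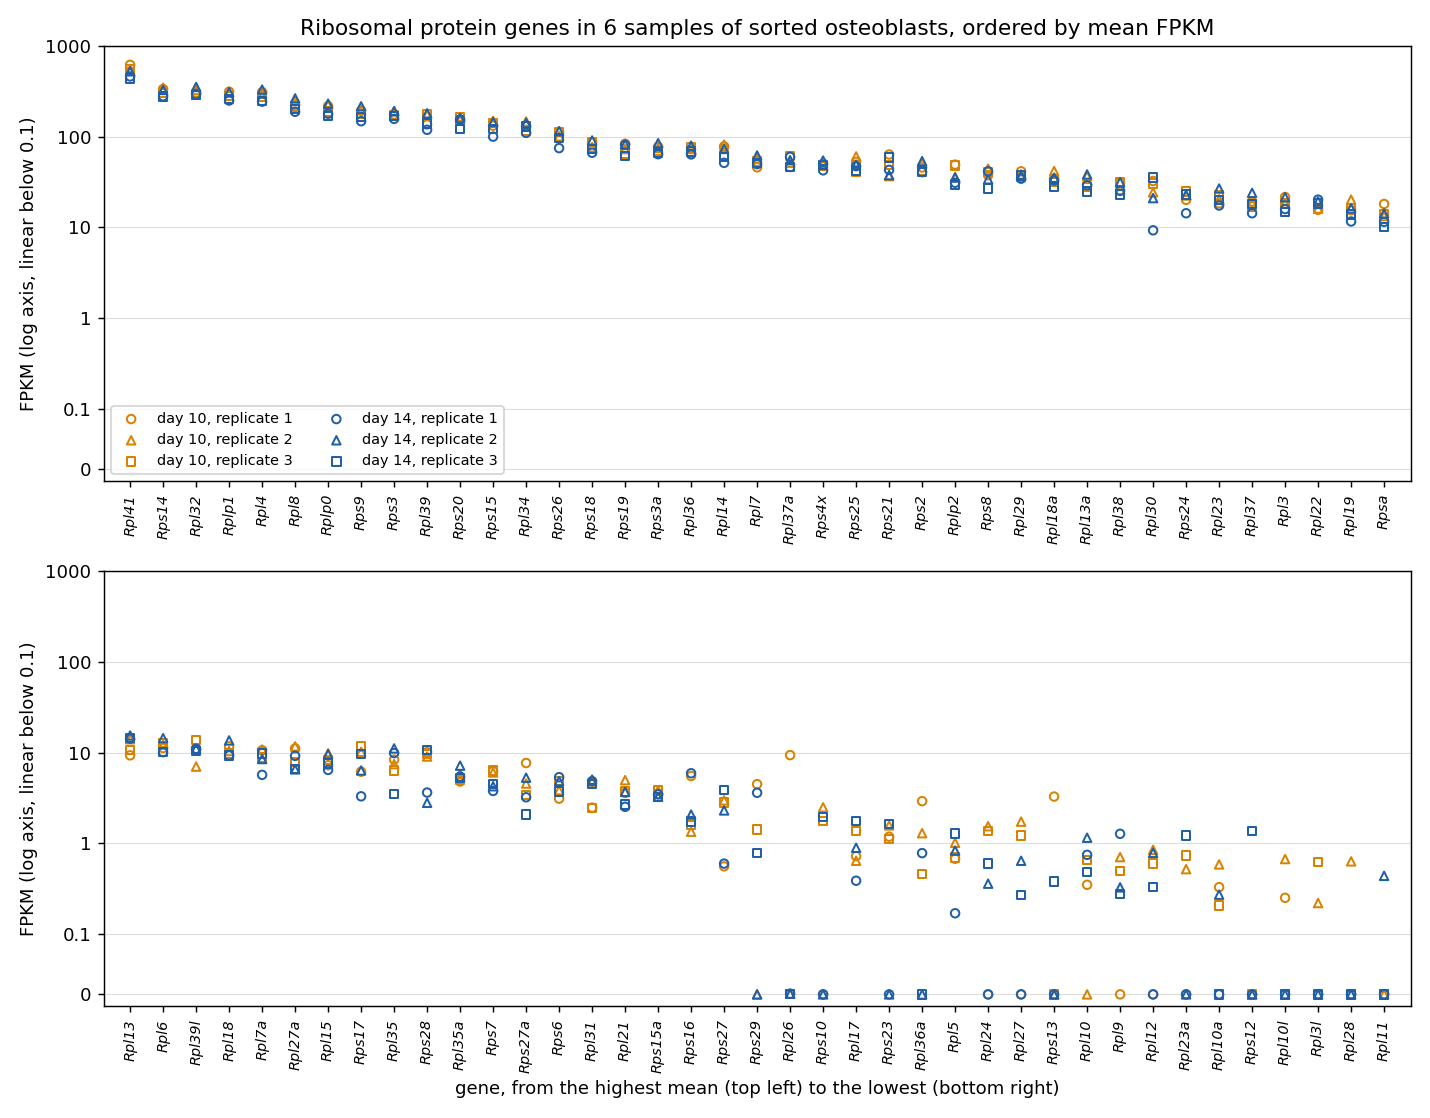
FPKM of 78 of the 80 ribosomal protein genes in the 6 samples, ordered by the mean (y axis logarithmic above 0.1 and linear below; orange, day 10; blue, day 14; circles, triangles and squares, replicates 1, 2 and 3). The samples of a gene lie close together in the upper row, whereas the lower row runs down to 17 genes that are listed at 0 in at least 1 sample.

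The highest member was Rpl41, which encodes a very small basic protein of the large subunit. It was listed at 619, 550 and 550 FPKM on day 10, then at 461, 525 and 436 FPKM on day 14, and it alone made up 9.6% to 11.8% of the ribosomal protein sum of a sample. Rps3 stood at 175, 191 and 172 FPKM on day 10, then at 157, 191 and 168 FPKM on day 14. Its later samples ran from below those of day 10 to level with the highest of them. The small subunit gene Rps14 had 335, 347 and 304 FPKM on day 10 and 279, 327 and 278 FPKM on day 14. The large subunit gene Rpl32 had 305, 327 and 292 FPKM, followed by 294, 353 and 287 FPKM. The days overlapped for both genes, and day 14 replicate 2 was the highest of the later samples in each.

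Further genes of high level, Rplp1, Rpl4 and Rpl8, shared the order of their later samples. Rplp1, a protein of the stalk that recruits elongation factors, had 313, 310 and 280 FPKM on day 10 and 250, 310 and 261 FPKM on day 14. Rpl4, a large subunit protein that lines the exit tunnel, had 310, 298 and 273 FPKM, then 243, 330 and 248 FPKM. In both genes the lowest value belonged to day 14 replicate 1, and the days overlapped through day 14 replicate 2. For Rpl8, a large subunit protein close to the peptidyl transferase centre, the values were 224, 248 and 215 FPKM on day 10 and 188, 264 and 202 FPKM on day 14, with the same lowest and highest samples among the later ones.

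At the other end stood proteins that a ribosome needs as much as those above. Rpl11, which joins the ribosome together with the 5S RNA and is also known to bind the p53 regulator Mdm2, was listed at 0 in 5 samples and at 0.437 FPKM in day 14 replicate 2, about 1.6 reads. Rpl28 was listed at 0 in 5 samples and at 0.631 FPKM in day 10 replicate 2. Rps12 was listed at 0 in 5 samples and at 1.37 FPKM in day 14 replicate 3, about 3.4 reads. These single values came from different samples of both days. Rpl10a had 0.328, 0.584 and 0.206 FPKM on day 10 and 0, 0.271 and 0 FPKM on day 14. Rpl23a had 0, 0.518 and 0.731 FPKM, then 0, 0 and 1.21 FPKM, and Rpl12 of the stalk base had 0, 0.845 and 0.597 FPKM, then 0, 0.784 and 0.329 FPKM. Each of these values corresponds to about 4.8 reads or fewer, and 3 reads on 1000 bases corresponded to 0.387 to 0.662 FPKM at the estimated depth of 4531927 to 7761279 mapped reads. No order between such genes can be read at this depth.

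The level went with the share of the coding sequence that another locus also holds. For each gene, every window of 75 bases in the coding sequence was looked up in all annotated transcripts of other loci. In 26 of the 80 genes every coding window was found elsewhere, and their median was 0.936 FPKM, with 14 genes under 1 FPKM and 13 listed at 0 in a sample. The 36 genes with 50% to under 100% of the windows shared had a median of 23.4 FPKM. The 14 genes with some but under 50% of the windows shared had a median of 192 FPKM, and 9 of them reached 100 FPKM. The 4 genes with no shared window had a lower median, 93.1 FPKM, and include the paralogs Rpl3l and Rpl39l. Spearman's rho between the shared percentage and the mean level was −0.63 over the 80 genes, and it ran from −0.64 to −0.62 in the single samples. The genes share libraries and annotation, and rho is given as a description across genes.

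The other loci were nearly all pseudogenes. Of 712 annotated genes that shared a window with a ribosomal protein gene, 678 were annotated as pseudogenes, 22 as protein coding and 12 as other kinds. Rpl7a shared windows with 64 loci, Rpl21 with 60, Rps2 with 50 and Rpl29 with 43. The number of loci itself went less closely with the level (rho −0.32), and Rps2, with 76.1% of its coding windows shared, was listed at 40.6 to 53.7 FPKM. When windows were taken from the whole transcript, with its parts outside the coding sequence, rho was −0.43. How reads that matched several loci were counted was not given in the sources used here, and whether it set these levels was not tested.

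**Figure D2:**
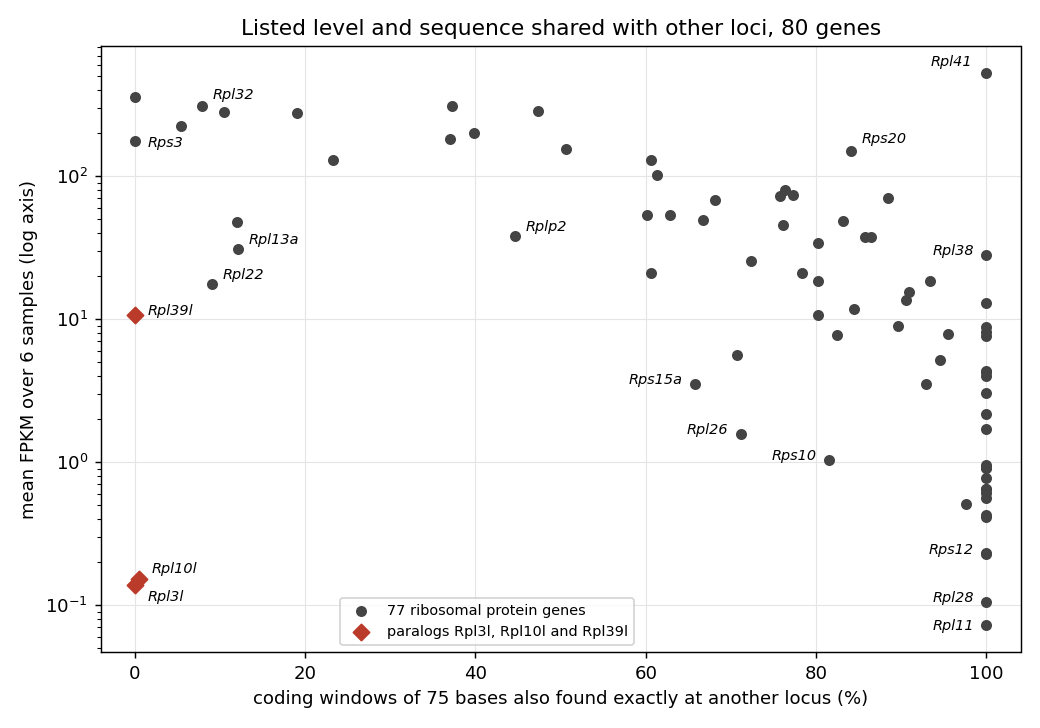
Mean FPKM over 6 samples (log axis) against the percentage of 75-base coding windows found exactly in a transcript of another locus, for 77 genes (grey) and the paralogs Rpl3l, Rpl10l and Rpl39l (red). Genes at 100% reach down to 0.0728 FPKM for Rpl11, and Rpl41, whose coding sequence is a single window, stands apart at 524 FPKM.

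Of the 26 genes with every coding window shared, 12 had a mean of at least 1 FPKM, among them Rpl38 at 28, Rpl13 at 13, Rpl27a at 8.8 and Rpl15 at 8.14 FPKM. Rpl41 stood highest of the 26. Its coding sequence holds a single window, and over the whole transcript of 437 bases 36.1% of its windows were shared, against 82.5% for Rps12, 76.7% for Rpl10a and 61% for Rpl11. Rpl28 had a similar share, 32.9% of its whole-transcript windows, at a mean of 0.105 FPKM. Among the genes with few shared windows, Rpl22, a large subunit protein whose loss ribosomes tolerate, stood at 17.6 FPKM with 9.03% shared, and Rpl13a at 31 FPKM with 12.1% shared. Among the other listed genes, the 256 with every coding window shared had a median of 0 FPKM and the 16597 with none shared had a median of 1.74 FPKM.

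A few genes that all cells use were looked up for comparison, and they were chosen after their values had been seen. Gapdh of glycolysis, with every coding window shared, was listed at 0.125 to 0.414 FPKM. Ppia, the cyclophilin gene, also had every window shared and was listed at 0 in 5 samples and at 0.268 FPKM in day 14 replicate 3. In contrast, Actb with 4.57% of windows shared was listed at 689 to 1042 FPKM, and Hprt with none at 25.7 to 55.3 FPKM. Tpt1, however, had every coding window shared and was listed at 9.28 to 13.1 FPKM. Eef1a1, with 51.8% shared, was listed at 332 to 485 FPKM. A value of 0 for a ribosomal protein gene is given here only as a listing.

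The paralogs known from particular tissues had almost no coding windows of 75 bases that another locus also held. Rpl3l, which replaces Rpl3 in striated muscle, was listed at 0, 0.219 and 0.618 FPKM on day 10 and at 0 in all 3 samples of day 14, while Rpl3 itself stood at 14.8 to 21.6 FPKM. Rpl10l, a copy of Rpl10 used in the testis, had 0.25, 0.669 and 0 FPKM on day 10 and was listed at 0 on day 14. Neither paralog went above about 5.5 reads in a sample. Rpl39l, a copy of Rpl39 known from the testis, was different, with 10.9, 7 and 13.8 FPKM on day 10 and 11, 11 and 10.4 FPKM on day 14. The sequences of the last pair are shown because they are alike but not the same. Capitals mark the 8 of the first 75 coding bases that differ.
Rpl39: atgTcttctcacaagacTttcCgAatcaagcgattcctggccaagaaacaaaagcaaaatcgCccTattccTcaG
Rpl39l: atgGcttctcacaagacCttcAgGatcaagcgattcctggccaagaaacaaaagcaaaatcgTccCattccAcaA
Over the whole coding sequence of 153 bases, 23 bases differed between Rpl39 (chromosome X, 37082520 to 37085402, minus strand) and Rpl39l (chromosome 16, 10170226 to 10174911, plus strand). None of the Rpl39l windows was found at another locus. Rpl39 was listed at 136, 174 and 176 FPKM on day 10, then at 119, 181 and 140 FPKM on day 14, above Rpl39l in every sample.

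Very short transcripts did not stand out by level. The shortest member transcript was that of Rps27, with 345 bases, and 12 genes had a transcript under 500 bases. Their median was 17.9 FPKM, against 14.6 FPKM for the 68 others, and Spearman's rho between transcript length and level was −0.08 over the 80 genes. Rps27 was listed at 0.556, 2.97 and 2.8 FPKM on day 10, then at 0.596, 2.3 and 3.85 FPKM on day 14. Rpl38, with 364 bases and a known role in the patterning of the axial skeleton, had 31.2, 25.8 and 31.1 FPKM, then 25.3, 31.5 and 23 FPKM. The lower values of Rps27 belonged to replicate 1 of each day. All its values rested on about 3.1 reads or fewer, so no order between its samples can be read. The lower values of Rpl38 were spread over both days.

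The next shortest transcripts differed among themselves as widely. Rpl36 (383 bases) had 64.6, 73 and 75.5 FPKM on day 10 and 63.7, 79.6 and 68.3 FPKM on day 14. Rps29 (390 bases) had 4.48, 0 and 1.41 FPKM, then 3.6, 0 and 0.777 FPKM, about 3.5 reads at most. Rps28 (392 bases) had 10.1, 9.03 and 9.57 FPKM, then 3.62, 2.79 and 10.6 FPKM. In Rps28 and Rps29 every coding window was shared, and in both genes a sample of day 14 lay within or above the range of day 10. Rps21 (394 bases, 12% of windows shared) had 63.5, 36.7 and 48.4 FPKM, then 43, 37.7 and 58.7 FPKM, with the days overlapping.

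No ribosomal protein gene had a longest annotated transcript under 200 bases, but 759 listed genes did, and they took 11.2% to 18.5% of the FPKM sum of a sample. The highest gene of all was of this kind, the microRNA gene Mir682, whose longest annotated transcript is 96 bases and which took 7.88% to 11% of the sum. The share of any other group is a share of a sum that holds these genes.

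The annotated starts of the mRNAs were also examined. Ribosomal protein mRNAs are known to begin with a C followed by a run of pyrimidines, a feature that ties their translation to growth signals through mTOR. The RefSeq promoter table (GRCm38.p6) held 60 of the 80 genes. A start at C with a run of at least 5 pyrimidines (C or T, read on the strand of the gene) stood at an annotated start of 13 of the 60 genes, or 21.7%, against 3.01% of all 27025 genes of the table. The hexamer CTTCCG, the core of sites bound by ETS factors, was found on either strand of the 300 bases around a start in 68.3% of the 60 genes and in 18.8% of all genes. These are counts of letters in a window. Examples are shown with 10 bases before and 20 bases from the annotated start, with the run in capitals.
Rpl15: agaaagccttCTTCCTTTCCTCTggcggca
Rpl35: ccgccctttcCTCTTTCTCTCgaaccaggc
Rps6: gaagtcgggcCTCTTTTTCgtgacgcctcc
Rplp2: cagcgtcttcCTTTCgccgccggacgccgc
They lie at chr14:18270967-18270996 (minus strand), chr2:39005112-39005141 (minus), chr4:86857348-86857377 (minus) and chr7:141447641-141447670 (plus). The means of the 13 genes with such a start ran from 0.105 FPKM for Rpl28 to 80.3 FPKM for Rps18 with a median of 7.75 FPKM, and the 47 others in the table had a median of 11.8 FPKM. Rpl14 stood at 67.7, Rps21 at 48 and Rpl38 at 28 FPKM. Rpl15 was listed at 6.43 to 9.79 FPKM, Rpl35 at 3.48 to 11.1 FPKM, and Rps6, the target of the S6 kinases, at 3.1 to 5.35 FPKM, all with 82.4% to 100% of their coding windows shared.

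The genes were also read by their roles. The stalk genes Rplp0, Rplp1 and Rplp2 were listed at means of 201, 287 and 38.2 FPKM. Rplp0, the anchor of the stalk, had 217, 223 and 189 FPKM on day 10 and 179, 231 and 168 FPKM on day 14. Rpl5, the partner of Rpl11 on the 5S RNA, had 0.674, 1.01 and 0.696 FPKM, then 0.169, 0.83 and 1.28 FPKM. Every coding window of Rpl5 and Rpl11 was shared, and both genes overlapped between the days.

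The X-linked members differed widely in listed level. Rps4x had 50.4, 51.1 and 47.3 FPKM on day 10 and 42.5, 54.5 and 48.9 FPKM on day 14, with 66.7% of its windows shared. Rpl10, which is needed to join the subunits, had 0.348, 0 and 0.656 FPKM, then 0.745, 1.15 and 0.482 FPKM. Rpl36a had 2.91, 1.29 and 0.457 FPKM, then 0.778, 0 and 0 FPKM. In Rpl10 and Rpl36a every coding window was shared, and Rpl39, the highest of the 4, had 50.6% shared. Rps27a, which is made as a fusion with ubiquitin, had 7.66, 4.55 and 3.39 FPKM on day 10 and 3.21, 5.28 and 2.08 FPKM on day 14, with the days overlapping.

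Of 9 genes known from Diamond-Blackfan anaemia, an inherited failure of red cell formation, the means ran from 0.0728 FPKM for Rpl11 to 102 FPKM for Rps26. Rps19, the gene first tied to that disease, had 83.4, 72.9 and 64.9 FPKM on day 10 and 81, 82 and 61.5 FPKM on day 14. Rps26 had 113, 101 and 113 FPKM, then 74.7, 115 and 96.1 FPKM. Both genes overlapped between the days.

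The ribosomal protein genes together took close to 1% of the FPKM sum on both days. The share was 1.12%, 1.09% and 1.16% in day 10 replicates 1, 2 and 3, and 0.932%, 1.12% and 0.973% in day 14 replicates 1, 2 and 3. Day 14 replicates 1 and 3 were below all samples of day 10, and day 14 replicate 2 lay within their range, so the days overlapped. The day 10 mean was 1.12% ± 0.0316 (SD, n = 3), and the day 14 mean was 1.01% ± 0.101 (SD, n = 3), a difference of −0.115 percentage points, which is close to the SD of day 14. The large subunit took 0.519% to 0.634% and the small subunit 0.413% to 0.523% of the sum, and in both the order of the later samples was the same. Without Mir682 in the sum, the share was 1.22% to 1.3% on day 10 and 1.03%, 1.24% and 1.06% on day 14, again with replicate 2 within the range of day 10.

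**Figure D3:**
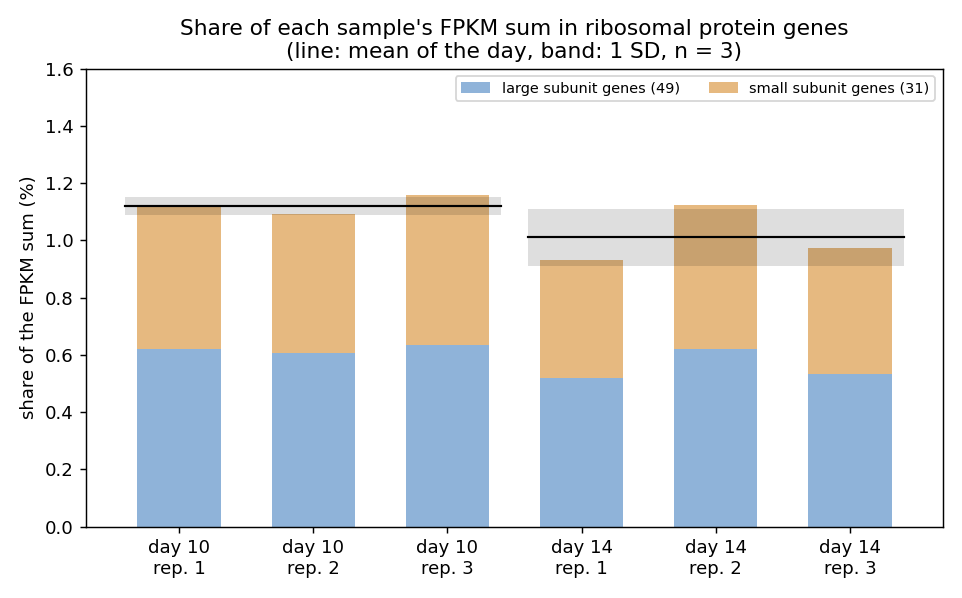
Share of the FPKM sum of each sample in the large (blue) and small (orange) subunit genes, stacked (lines and bands: mean and SD of the whole share per day, n = 3). Day 14 replicates 1 and 3 lie lower, at 0.932% and 0.973%, and day 14 replicate 2, at 1.12%, lies with the samples of day 10.

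No ribosomal protein gene differed between day 10 and day 14 at an adjusted p under 0.05. The test was limma on values of log2(FPKM + 0.1), and the 19526 genes tested were those averaging above 0.1 FPKM. Of the ribosomal protein genes 79 were tested, since Rpl11 was under that limit. Of all genes tested, 0.0154% (3 genes) passed as higher and 0% as lower on day 14. The lowest adjusted p of a ribosomal protein gene was 0.4 by limma, for Rps7. At an unadjusted limma p under 0.05, 0 genes were higher and 3, Rps7, Rplp2 and Rpl36a, were lower on day 14 among the 79, against 5.6% higher and 4.4% lower of all genes tested. The median log2 fold change was −0.14 over the 79 genes and −0.04 over all genes tested. These medians were −0.28 and −0.15 with upper-quartile scaling and −0.25 and −0.01 with quantile normalization.

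Few genes had days that did not overlap. In 2 genes, or 2.53%, all samples of day 14 were above all samples of day 10, and in 4 genes, or 5.06%, all were below, against 7.59% and 6.67% of all genes tested. This comparison depended on the scaling of the samples. With upper-quartile scaling 0 genes were above and 16, or 20.3%, below, against 3.3% and 10.7% of all genes. With quantile normalization 1 gene was above and 12, or 15.2%, below, against 8.46% and 8.94% of all genes. The genes above were Rpl13 and Rpl22, and those below were Rps7, Rplp2, Rpl41 and Rps15a.

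**Figure D4:**
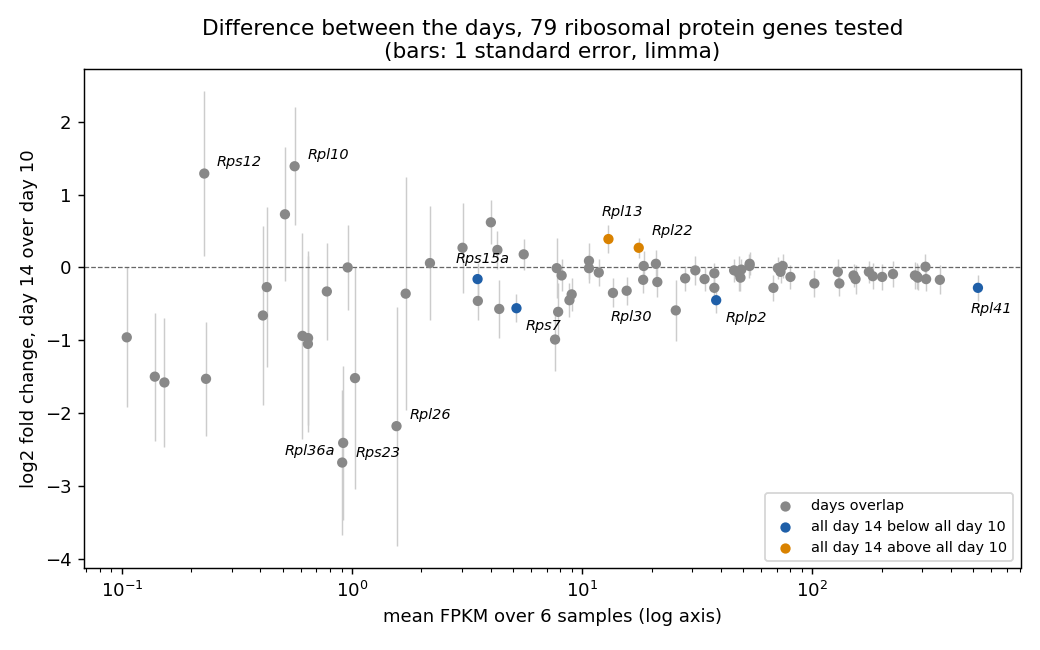
Log2 fold change of day 14 over day 10 with its standard error (limma) against the mean FPKM (log axis) for the 79 genes tested. Genes over 10 FPKM lie between −0.59 and 0.39; the spread and the standard errors are wider among the genes of low level.

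Rps7, a small subunit protein, had 6.23, 6.03 and 6.31 FPKM on day 10 and 3.77, 4.25 and 4.51 FPKM on day 14, so that all later samples were lower. Its log2 fold change was −0.56 ± 0.19 (SE, limma, adjusted p = 0.4). Rplp2, a stalk protein, had 49.1, 35.9 and 47.9 FPKM on day 10 and 31, 35.4 and 29.8 FPKM on day 14, with day 10 replicate 2 just above day 14 replicate 2. The log2 fold change of Rplp2 was −0.45 ± 0.17 (SE, limma, adjusted p = 0.433). A listed pseudogene of it, Rplp2-ps1, stood higher than the gene itself, at 80, 82.4 and 77.9 FPKM on day 10, then at 72.2, 88.3 and 65.7 FPKM on day 14, and it overlapped between the days. Whether reads were split between gene and pseudogene was not tested.

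Rpl41, with the values given above, had a log2 fold change of −0.28 ± 0.18 (SE, limma, adjusted p = 0.686). Rps15a had 3.48, 3.83 and 3.8 FPKM on day 10 and 3.46, 3.25 and 3.22 FPKM on day 14, a log2 fold change of −0.16 ± 0.22 (SE). The gap between the days was narrow in Rps15a, where day 10 replicate 1 and day 14 replicate 1 differed in the last digit only. Rpl13, in which inherited variants cause a skeletal dysplasia, had 9.31, 14 and 10.6 FPKM on day 10 and 14.2, 15.4 and 14.4 FPKM on day 14. Its log2 fold change was 0.39 ± 0.19 (SE, limma, adjusted p = 0.547). Rpl22 had 15.6, 16.1 and 16.1 FPKM, then 20.2, 19.3 and 18.3 FPKM, a log2 fold change of 0.27 ± 0.14 (SE, limma, adjusted p = 0.578). In Rpl22 the samples of a day lay close together, and the gap between the days was wider than their spread.

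The 45 genes with a mean of at least 10 FPKM had a narrow spread across the 6 samples. Their log2 fold changes ran from −0.59 for Rpl30 to 0.39 for Rpl13 with a median of −0.11, and 36 of the 45 were below 0. Of these genes 97.8% lay within 0.5 of 0, against 76.8% of the 4605 genes at that level, of which 45.3% were below 0. The coefficient of variation over the 6 samples had a median of 13.3% over the 45 genes and of 18.6% over the 4560 other genes with a mean of at least 10 FPKM. It was lowest for Rpl29, at 6.48%, and highest for Rpl30, at 37.4%. Rpl30 had 32.4, 24.3 and 30.4 FPKM on day 10 and 9.27, 21 and 35.4 FPKM on day 14, so its fold change rested on day 14 replicate 1, and without that sample it was −0.08 on the log2 scale.

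**Figure D5:**
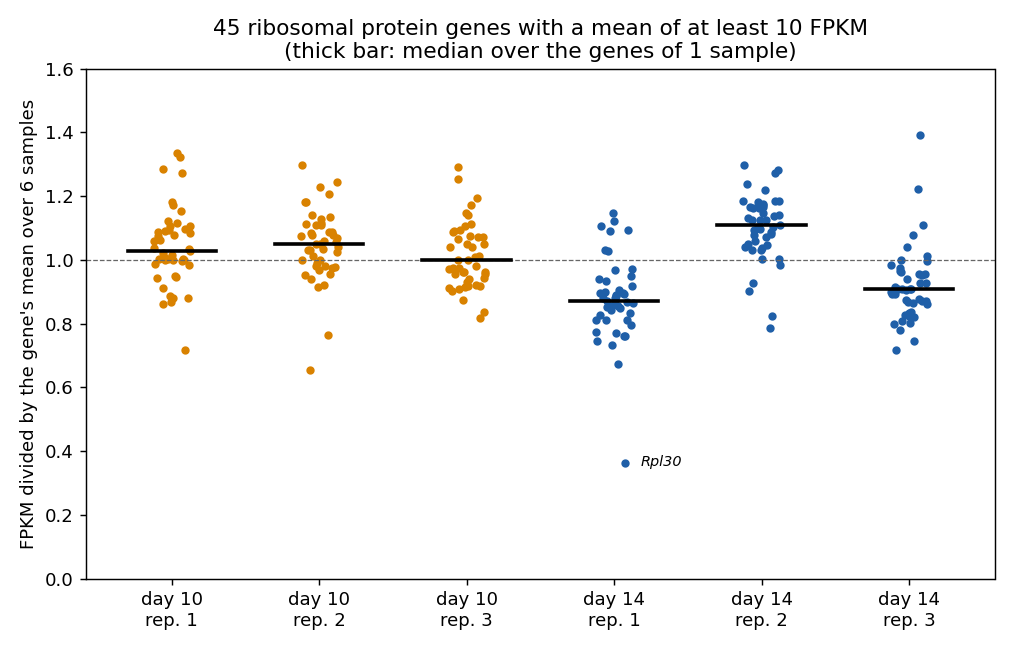
FPKM divided by the mean of the gene over 6 samples for the 45 genes with a mean of at least 10 FPKM (points; orange, day 10; blue, day 14; thick bar, median of a sample). The medians of day 14 replicates 1 and 3 lie at 0.87 and 0.907, and that of day 14 replicate 2 at 1.11, above every sample of day 10.

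Day 14 replicate 2 was the highest of the day 14 samples in 38 of these 45 genes. Relative to the mean of each gene, the median over the 45 genes was 1.03, 1.05 and 0.996 in day 10 replicates 1, 2 and 3 and 0.87, 1.11 and 0.907 in day 14 replicates 1, 2 and 3. Day 14 replicate 1 was the lowest sample for 25 of the 45 genes and day 14 replicate 3 for 14, whereas day 14 replicate 2 was the highest for 22. Without day 14 replicate 2, all remaining later samples were below all samples of day 10 in 28 of the 79 ribosomal protein genes, or 35.4%, and above them in 2, or 2.53%, against 13.2% and 15.3% of all genes under the same omission. The sample left out is the one that stood highest of the later samples in most of the 45 genes. A larger count below therefore follows in part from that choice. With that sample left out, none of the ribosomal protein genes reached an adjusted p under 0.05 by limma. The large subunit genes of this set had a median log2 fold change of −0.08 and the small subunit genes of −0.12.

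Day 14 replicate 2 also differed from the other later samples in marker genes. The summed level of 7 OB markers, Dlx5, Runx2, Sp7, Alpl, Col1a1, Ibsp and Bglap2, was 54192, 52070 and 28368 FPKM on day 10 and 19619, 38269 and 15669 FPKM on day 14, and all 7 were above 0 in every sample. Col1a1 and Ibsp led this sum, at 14151 to 34157 and 1293 to 25254 FPKM. The summed level of 9 listed chondrocyte markers was 732 to 1542 FPKM on day 10 and 226, 2361 and 170 FPKM on day 14, with Matn1 alone listed at 0 in a sample. The sum of 8 myeloid markers was 35.9 to 160 FPKM on day 10 and 259, 20.2 and 612 FPKM on day 14, led by Lyz2, with Ptprc, which encodes CD45, at 0.134 to 2.99 FPKM. Sums over 6 endothelial markers were 6.03 FPKM or less in all samples. The part of these cells in the ribosomal protein levels was not tested, and in such samples fewer cells of a type and less RNA per cell cannot be told apart.

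The largest fitted changes belonged to genes of low level. Rpl36a, with the values given above, had an adjusted p of 0.431 by limma. Its fitted log2 fold change was set by the pseudocount, at −2.68 with 0.1, −0.96 with 1 and −4.82 with 0.01 FPKM, and its lowest sample of day 10 was under its highest of day 14. Rps23 had 1.18, 1.57 and 1.11 FPKM on day 10 and was listed at 0, 0 and 1.63 FPKM on day 14. Rpl26 had 9.36 FPKM in day 10 replicate 1 and 0.00103 to 0.00109 FPKM in the other 5 samples. Rps10 had 0, 2.49 and 1.76 FPKM on day 10 and 0, 0 and 1.94 FPKM on day 14. Such jumps between a level of several FPKM and 0 occurred within a day as well as between the days, and no fold is given for them.

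Low genes were also among those with the largest fitted values above 0. Rpl9 had 0, 0.703 and 0.496 FPKM on day 10 and 1.27, 0.326 and 0.274 FPKM on day 14. Rpl31 had 2.47, 4.78 and 2.46 FPKM, then 4.83, 5.03 and 4.49 FPKM. Rps16 had 5.51, 1.34 and 1.58 FPKM, then 5.91, 2.07 and 1.74 FPKM, with replicate 1 the highest of each day. The days overlapped for these genes, and none of them had an unadjusted limma p under 0.05.

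Ribosomal genes that the naming rule leaves out also differed in level, with means from 3.9 to 239 FPKM, a narrower range than that of the 80 genes. Gnb2l1, the listed symbol of Rack1, a scaffold protein of the small subunit, had none of its windows shared and was listed at 277, 256 and 236 FPKM on day 10, then at 173, 257 and 232 FPKM on day 14. Fau, which encodes a small subunit protein fused to a ubiquitin-like protein, was listed at 1.66 to 6.73 FPKM with every coding window shared. Rps27l, a near copy of Rps27, was listed at 196 to 254 FPKM with 27% of its windows shared, above Rps27 in every sample. Rpl36al, a copy of Rpl36a, was listed at 34.7 to 64.9 FPKM with 69.3% shared. Of the 7 listed genes of this kind, 0 had an unadjusted limma p under 0.05, and their median log2 fold change was −0.15.

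Other genes of the translation machinery, and genes of the proteasome, were compared in the same fit. Of 76 mitochondrial ribosomal protein genes, which serve the separate ribosomes of mitochondria, 0 were higher and 11 were lower on day 14 at an unadjusted limma p under 0.05, and in 15 all samples of day 14 were below all of day 10. Their median log2 fold change was −0.24, and they took 0.305% to 0.352% of the FPKM sum on day 10 and 0.263%, 0.288% and 0.299% on day 14, without overlap between the days. Of these 76 genes, 1 had every coding window shared. Of 50 translation factor genes tested, 2 were higher and 3 lower, with a median of −0.05. Of 57 ribosome biogenesis genes, 3 were higher and 0 lower, with a median of −0.04, and of 31 proteasome genes 0 were higher and 2 lower, with a median of −0.11. None of the genes of these lists had an adjusted p under 0.05. Of all genes tested, 5.6% were higher and 4.4% lower at an unadjusted limma p under 0.05. All samples of day 14 were below all of day 10 in 6.67% of all genes. The counts and shares of these lists are given for the main fit and the listed FPKM only.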

How the data were processed

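Single-end reads of 75 bases were mapped by the authors to mm10 using TopHat2 2.0.13, Bowtie2 2.2.3 and SAMtools 0.1.19, and the deposited FPKM per gene were computed by the authors with Cufflinks 2.2.1, with 1 file per sample. The gene annotation and the handling of reads with several matches were not given in the sources used here. Counts of reads were not used, and the depth was estimated from the steps between low FPKM values of 2193 genes with 1 transcript (fragment length 230 bases, values up to 0.3 FPKM). Of these values, 75.5% to 79.6% came out within 0.1 of a whole read. Depth and fragment length were chosen to make this share highest, and its median over the depths tried was 10.8% to 13.5%. No error was computed for the estimates.

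All 80 member symbols were matched to GENCODE vM21, Rps3a as Rps3a1. In 1 sample, symbols turned into dates were restored by their position. Windows of 75 bases were compared exactly, on either strand, with annotated transcripts at other loci.

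The days were compared with limma 3.58.1 in R 4.3.3 (trend, log2(FPKM + 0.1), mean above 0.1 FPKM, Benjamini-Hochberg over all genes tested), and fold changes are on that scale. The fit was also run on simulated data, the outcome of which is not reported here and is not used as support. An exact permutation test of 3 against 3 samples cannot go below 0.1. Named genes were all those passing the test, the 8 highest and 8 lowest by mean, the 6 with the largest change in each direction, the 6 shortest, and the stalk, 5S, X-linked and paralog genes. A few genes that the rule names are not reported here. Rps3, Rps7, Rps15a, Rps19, Rps26 and Rpl30 were added after their values were seen. Members and lists were chosen with earlier results of these data known. Alternatives changed the pseudocount, filter, scaling, variance model, replicate block and samples. Python 3.11.15 with pandas 2.3.3, scipy 1.17.1 and matplotlib 3.10.9 was used for the other steps.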

Additional observations from a re-analysis of the deposited data

How the results depend on the processing

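The count of ribosomal protein genes with an adjusted limma p under 0.05 was 0 under every alternative run. At an unadjusted p under 0.05, the count lower on day 14 was 3, and it was 10 with upper-quartile scaling, 5 with sums made equal without Mir682 and 7 with quantile normalization. The count with all samples of day 14 below day 10 was 4, and under the same settings 16, 9 and 12. Under those settings the shares were 20.3%, 11.4% and 15.2%, against 10.7%, 8.57% and 8.94% of all genes. In the main fit the share was 5.06%, against 6.67% of all genes. The count above was 2, and it was 0 with upper-quartile scaling and 1 with quantile normalization. Over all genes, 7.59% were above in the main fit, 3.3% with upper-quartile scaling and 8.46% with quantile normalization. In the main fit 4.4% of all genes were lower at an unadjusted limma p under 0.05. That share is not given here for the other settings. Upper-quartile scaling moved the median log2 fold change of all genes from −0.04 to −0.15 and that of the ribosomal protein genes from −0.14 to −0.28. The share difference was −0.115 percentage points, and −0.29 without the 10 highest other genes in the sum. The cause of these moves was not tested.

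With each sample left out in turn, genes passing the adjusted threshold numbered 0 to 0 among the ribosomal protein genes and 3 to 76 among all genes (76 without day 14 replicate 2, 6 without day 14 replicate 1 or day 10 replicate 3, 5 without day 10 replicate 2). Counts at an unadjusted p ran from 0 to 2 higher (2 without day 10 replicate 2) and from 2 to 5 lower (5 without day 14 replicate 2 or 3), and counts without overlap from 2 to 5 above (5 without day 14 replicate 3, 4 without day 10 replicate 2) and from 4 to 28 below (28 without day 14 replicate 2, 13 without day 10 replicate 3, 10 without day 10 replicate 1, 8 and 7 without day 14 replicates 3 and 1). The share of ribosomal protein genes below was 35.4%, against 13.2% of all genes, without day 14 replicate 2. It was 16.7% against 12.7% without day 10 replicate 3 and 13% against 8.97% without day 10 replicate 1. It was 10.3% against 9.89% without day 14 replicate 3 and 8.86% against 19% without day 14 replicate 1. Without day 10 replicate 2, it was 5.19% against 11.1%. Above, it was 5.19% against 11.4% there and 6.41% against 11.2% without day 14 replicate 3. The median log2 fold change ran from −0.26 to −0.05 and the share difference from −0.172 to −0.076 percentage points. Of the genes whose fold changes were recomputed and are given, Rpl8 changed sign, to 0.01 without day 14 replicate 1 (lowest value −0.23).

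Samples that share a replicate number deviated from the mean of their day with a correlation of 0.058, −0.00584 and 0.0887 across genes, so the numbers were not taken as pairs. With the replicate block, 6 ribosomal protein genes were lower at an unadjusted p under 0.05. Depth limits the genes under about 1 FPKM, which rest on few reads, at most about 16.4 in a sample, for Rpl5. Short transcripts above that level can rest on as few, such as Rps27 at about 3.1 reads or fewer and Rps29 at about 3.5 or fewer.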
